A study of Homo sapiens with 12 samples.

Results

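Of the 45 repeat models tabulated in this study, 5 were treated here as a set of ancient long interspersed elements (LINEs). These were L1M2c_5end, L1M3e_5end, L1M4b_5end, L1MDb_5end and CR1_Mam. They were taken by name from both count tables, and the plus and minus strand columns were kept apart, which gave 10 of 90 features. RNA came from THP-1, a widely used monocytic cell line derived from an acute myeloid leukaemia, after spin transduction with a single guide RNA (sgRNA) and puromycin at 1 µg/ml from 48 h. The groups were SETDB1 sgRNA 9 at day 4, non-targeting (NTC) sgRNA at day 4, SETDB1 sgRNA 9 at day 7 and NTC sgRNA at day 7, with 3 libraries each and 12 in all. The design text names SETDB1 sgRNAs 6 and 9, whereas each SETDB1 title names sgRNA 9, and the grouping here goes by title. Whether replicates were separate cultures is not stated in the labels, so p-values speak only to the spread among these libraries, part or all of which may be technical. The series asks whether repeats are transcribed from both strands once SETDB1 is depleted.

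LINEs copy themselves through an RNA intermediate. A full L1 carries an internal promoter in its 5′ untranslated region, a pair of open reading frames and a 3′ end, and an antisense promoter is known in the 5′ region of young human L1 elements. The L1M families are old mammalian-wide L1 families whose human copies are mostly truncated and no longer mobile. Their 5′ ends are described by models of their own because the 5′ region evolved faster than the coding part. The tabulated 3′ end models L1MA5_3end and L1MA8_3end also carry L1M names. They are outside the set and are listed below with the 3′ ends. CR1 is an older LINE clade first described in chickens, and CR1_Mam is a mammalian model of it. SETDB1 is a histone H3 lysine 9 methyltransferase recruited through KAP1 and zinc finger proteins, known for silencing retrotransposons. SETDB1 is not among the tabulated rows, so its depletion was not analysed here.

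The tables held 27388 to 58916 counts per library, and their totals were 1.65 times as high with SETDB1 sgRNA 9 as with NTC at day 4 and 1.43 times as high at day 7. The 5 ancient LINE models took 0.223% to 0.419% of them. Because the total depth of the libraries was not given in the sources used here, values are relative to the table: counts per 10000 table counts, or CPM after TMM scaling with the table total as the library size. A lower value per 10000 table counts therefore says that a feature took a smaller part of the tabulated repeat counts. A value after TMM scaling is relative to the bulk of the features and can differ from the share. With strands added, L1M4b_5end had a TMM fold of 0.647 at day 7 and a share ratio of 0.771. L1M3e_5end had a fold of 0.837 and a share ratio of 1.00. Fewer cells of a type and less RNA per cell cannot be told apart in such data. Related L1 models share sequence, and their reads may have been divided among them when counted. The sources used here do not say which column is sense to an element, so strands are named by column.

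Most of the 10 features were sparsely counted. Over the 12 libraries, L1M4b_5end had 863 minus and 262 plus counts, L1M2c_5end had 89 minus and 160 plus counts, L1M3e_5end had 16 minus and 91 plus counts, and L1MDb_5end had 99 minus and 9 plus counts. CR1_Mam had 22 minus counts and 0 plus counts. Both strands of L1M4b_5end and L1M2c_5end and the minus strand of L1MDb_5end passed edgeR's filter on low counts, 5 of 10 features. The other 5 features are given by their counts, since a filter of this kind keeps features by their level. The filter asked for the level of 10 counts at the median table total in 3 libraries. L1MDb_5end minus reached that level in NTC libraries only.

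**Figure D1:**
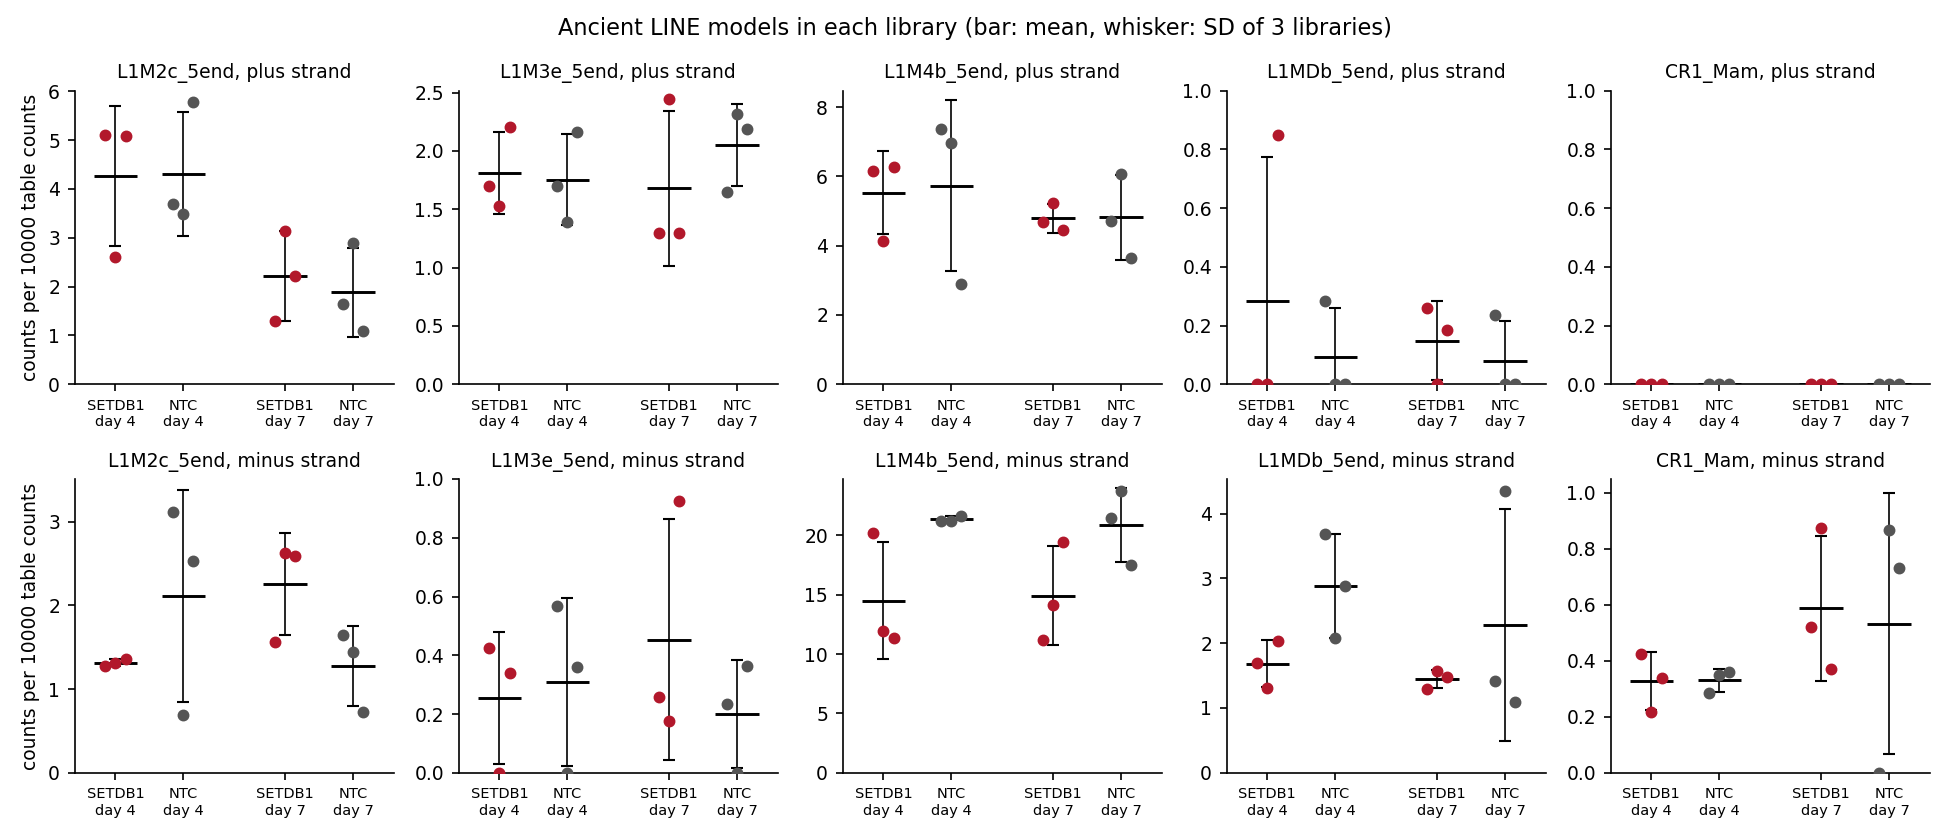
Counts per 10000 table counts (y axis, each panel with its own scale) of the 5 ancient LINE models by strand and group; points are libraries, bars are means and whiskers are SDs of 3 libraries. L1M4b_5end minus has a lower mean in SETDB1 than in NTC libraries at both days, L1M2c_5end plus has a lower mean at day 7 than at day 4 in both arms, and CR1_Mam plus is at 0 throughout.

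L1M4b_5end, the 5′ end model with the most counts of the set, had lower means on its minus strand in SETDB1 than in NTC libraries at both days. This held per table count and after TMM scaling. With TMM the difference was called at day 7 and with days averaged, but not at day 4. At day 4 its minus strand had 1941, 1307 and 1222 CPM in the SETDB1 libraries, against 2166, 1993 and 2021 CPM in the NTC libraries. Every SETDB1 library lay below every NTC library, with replicate 1 close to the NTC range. The means were 1490 ± 393 and 2060 ± 92.9 CPM (SD, n = 3 each). The log2 fold change, SETDB1 over NTC, was -0.47 ± 0.21 (SE), which did not pass edgeR's quasi-likelihood test across the table (adjusted p = 0.111, unadjusted p = 0.0317); without SETDB1 replicate 1 it was -0.71 and passed (adjusted p = 0.0128). L1M4b_5end minus was the 1 of the 5 tested members whose arms did not overlap at day 4, where 25.7% of all tested features did not overlap.

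At day 7 the minus strand of L1M4b_5end had 1061, 1356 and 1961 CPM in the SETDB1 libraries and 2347, 2414 and 1703 CPM in the NTC libraries. The arms overlapped, through SETDB1 replicate 3 and NTC replicate 3. The means were 1459 ± 459 and 2154 ± 393 CPM (SD, n = 3 each), and the minus strand fell by 0.56 ± 0.20 on the log2 scale (SE; a fold of 0.680, edgeR adjusted p = 0.0200). That call was lost when SETDB1 replicate 1 (-0.40, edgeR adjusted p = 0.1) or replicate 2 (-0.49, adjusted p = 0.0786), or NTC replicate 1 (-0.49, adjusted p = 0.0929) or replicate 2 (-0.47, adjusted p = 0.1), was left out, and with table totals in place of TMM (-0.48, adjusted p = 0.061). With the days averaged, L1M4b_5end minus fell by 0.51 ± 0.15 on the log2 scale (95% interval -0.81 to -0.22, edgeR adjusted p = 0.00343), and the value ran from -0.65 to -0.43 over the fits that left out 1 library each, every one of them past the threshold. The difference of the effect between days, day 7 minus day 4, was -0.088 ± 0.29 (edgeR adjusted p = 0.922).

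This fall is relative to the table. In raw counts the minus strand of L1M4b_5end had 95, 55 and 67 in the SETDB1 libraries and 75, 61 and 60 in the NTC libraries at day 4. At day 7 it had 43, 81 and 105 in the SETDB1 libraries and 91, 82 and 48 in the NTC libraries. The sums were 217 and 196 at day 4, a raw ratio of 1.11, and 229 and 221 at day 7, a raw ratio of 1.04, so that raw counts of the arms were close while the table total was higher in SETDB1 libraries. With counts left unscaled the log2 change turned positive, to 0.15 at day 4, 0.051 at day 7 and 0.10 averaged, while the median of all tested features moved to 0.65 and 0.76, against 0.038 and 0.16 with TMM. Per 10000 table counts the sums came to 14.3 with SETDB1 and 21.4 with NTC at day 4, a ratio of 0.669 (exact 95% interval 0.549 to 0.816), and to 15.3 with SETDB1 and 21.2 with NTC at day 7, a ratio of 0.722 (0.598 to 0.873). Intervals on summed counts cover counting error only, not the spread between libraries.

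**Figure D2:**
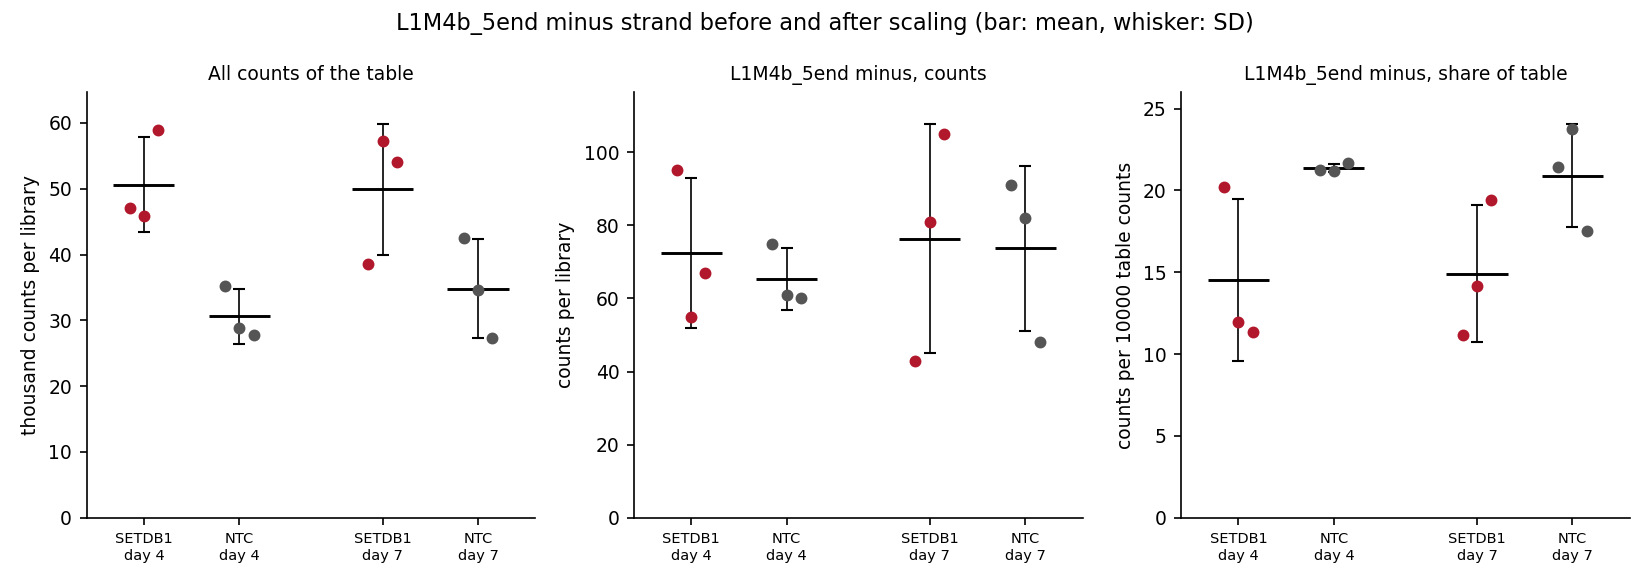
Panels by group show, from the left, the table total per library, the raw counts of L1M4b_5end minus, and its counts per 10000 table counts; points are libraries, bars are means and whiskers are SDs of 3 libraries. Raw counts of the arms overlap at both days. The share of the table has a lower mean in SETDB1 libraries at both days, without overlap at day 4 and with overlap at day 7.

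The plus strand of L1M4b_5end did not pass the test in any comparison; with unscaled counts only, its average over days did (0.57, edgeR adjusted p = 0.0403). It had 29, 19 and 37 counts in the SETDB1 libraries and 26, 20 and 8 in the NTC libraries at day 4. At day 7 it had 18, 30 and 24 counts in the SETDB1 libraries and 20, 21 and 10 in the NTC libraries. The arms overlapped at both days, and its log2 changes were 0.033 ± 0.30 at day 4, -0.11 ± 0.31 at day 7 and -0.037 ± 0.22 averaged (SE), with a 95% interval of -0.48 to 0.40 for the average. With both strands added, L1M4b_5end changed by -0.47 ± 0.19 at day 4 (edgeR adjusted p = 0.0543) and fell by 0.63 ± 0.19 on the log2 scale at day 7 (SE; edgeR adjusted p = 0.00710). Here and below, the fit with strands added had TMM factors of its own, so its log2 changes are not on the scale of the single strands. On that scale the day 7 means with both strands added were 1924 ± 456 CPM with SETDB1 and 2651 ± 521 CPM with NTC (SD). The day 7 call was lost with table totals in place of TMM (-0.38, adjusted p = 0.1), and the day 4 value passed without SETDB1 day 7 replicate 1 (-0.47, adjusted p = 0.0466). L1M4b_5end was the 1 of 4 tested members called at day 7 with strands added, where 50% of all 42 tested models were called, and 0 of 4 were called at day 4, where 31% were (unadjusted p under 0.05 in 1 of 4, DESeq2 0 of 4).

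L1MDb_5end, another L1M 5′ end model, had negative log2 changes on its minus strand at both days, with a wider error than L1M4b_5end. The minus strand reached the filter's level only in NTC day 4 replicates 1 and 3 and NTC day 7 replicate 2. Its lower values with SETDB1 were thus partly set by the filter and add no support to those of L1M4b_5end. L1MDb_5end had 8, 6 and 12 minus counts in the SETDB1 libraries and 13, 6 and 8 in the NTC libraries at day 4. At day 7 it had 5, 9 and 8 in the SETDB1 libraries and 6, 15 and 3 in the NTC libraries. On the CPM scale the means were 175 ± 39.4 with SETDB1 and 280 ± 90.2 with NTC at day 4, and 141 ± 15.4 with SETDB1 and 234 ± 181 with NTC at day 7 (SD, n = 3 each). The arms overlapped at both days, and at day 7 the SETDB1 libraries lay inside the NTC range. The log2 changes were -0.67 ± 0.47 at day 4, -0.72 ± 0.50 at day 7 and -0.69 ± 0.34 averaged (SE), and the average had an edgeR adjusted p of 0.0914. With no filter on low counts the average was -0.80 and passed (adjusted p = 0.0463), as it did without NTC day 4 replicate 2 or NTC day 7 replicate 3; without NTC day 7 replicate 2, the day 7 value turned to 0.089. With strands added, L1MDb_5end changed by -0.59 ± 0.39 at day 4 and -0.82 ± 0.43 at day 7 (SE; edgeR adjusted p = 0.114 at day 7), and the day 7 value passed without NTC day 7 replicate 3 (-1.05, adjusted p = 0.0264). The plus strand of L1MDb_5end had 9 counts in all, 5 of them in SETDB1 day 4 replicate 3.

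L1M2c_5end had no called difference between SETDB1 and NTC on either strand. Its plus strand had 24, 12 and 30 counts in the SETDB1 libraries and 13, 10 and 16 in the NTC libraries at day 4. At day 7 the plus strand had 5, 18 and 12 in the SETDB1 libraries and 7, 10 and 3 in the NTC libraries. The arms overlapped at both days, and the log2 changes were 0.13 ± 0.35 at day 4 and 0.19 ± 0.46 at day 7 (SE). With counts unscaled, the average over days was 0.77 (edgeR adjusted p = 0.0315), beside medians over all features of 0.65 at day 4 and 0.76 at day 7 at that setting.

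The minus strand of L1M2c_5end did not pass the test at either day. It reached the filter's level only in NTC libraries at day 4 and SETDB1 libraries at day 7, so the signs below partly follow from the filter. It had 6, 6 and 8 counts in the SETDB1 libraries and 11, 2 and 7 in the NTC libraries at day 4. At day 7 the minus strand had 6, 15 and 14 in the SETDB1 libraries and 7, 5 and 2 in the NTC libraries. The log2 changes were -0.61 ± 0.53 at day 4 and 0.70 ± 0.51 at day 7, and the arms overlapped at both days. With 1 library left out the day 4 value ran from -1.02, without NTC replicate 2, to -0.12, without NTC replicate 1. The difference of the effect between days was 1.31 ± 0.74 (SE; 95% interval -0.20 to 2.81), which did not pass (edgeR adjusted p = 0.278). With strands added, L1M2c_5end changed by -0.21 ± 0.30 at day 4 and 0.26 ± 0.35 at day 7.

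L1M3e_5end was counted mostly on the plus strand, at 8, 7 and 13 counts in the SETDB1 libraries and 6, 4 and 6 in the NTC libraries at day 4. At day 7 the plus strand had 5, 14 and 7 in the SETDB1 libraries and 7, 8 and 6 in the NTC libraries. Per 10000 table counts the arms overlapped at both days, and neither strand passed the filter. The ratio of summed plus counts, each per table count, was 1.06 at day 4 (exact 95% interval 0.553 to 2.09) and 0.863 at day 7 (0.467 to 1.61). The minus strand had 0 to 5 counts per library. With strands added, L1M3e_5end passed the filter and changed by 0.0041 ± 0.32 at day 4 and -0.26 ± 0.30 at day 7 (SE; log2). Per table count, without TMM, the ratio of the sums over both strands was 1.02 at day 4 (exact 95% interval 0.560 to 1.90). At day 7 that ratio was 1.00 (0.570 to 1.78).

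CR1_Mam, the only model of the set outside L1, was at the edge of detection. Its minus strand had 2, 1 and 2 counts in the SETDB1 libraries and 1, 1 and 1 in the NTC libraries at day 4. At day 7 it had 2, 5 and 2 in the SETDB1 libraries and 0, 3 and 2 in the NTC libraries. The sums of 5 and 3 counts gave a ratio per table count of 1.01 at day 4 (exact 95% interval 0.196 to 6.49), and those of 9 and 5 counts gave 1.25 at day 7 (0.378 to 4.77). The day 7 ratio came to 0.745 without NTC replicate 1 and 2.10 without NTC replicate 2. A difference of several fold in either direction was not detectable at this depth. CR1_Mam plus was at 0 in all 12 libraries. The exact 95% interval of its sum reached 0.243 and 0.246 per 10000 table counts in SETDB1 libraries at day 4 and day 7. In NTC libraries it reached 0.402 and 0.353.

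Among the 5 tested features, 0 were called between the arms at day 4, where 24.3% of all 70 tested features were (unadjusted p under 0.05 in 1 of 5, DESeq2 0 of 5). At day 7, 1 of 5 was called, L1M4b_5end minus, where 55.7% of all features were called in either direction and 25.7% were lower. No tested member had arms without overlap at day 7, against 55.7% of all tested features. In the average of days, 1 of 5 was called, against 55.7% of all features in either direction and 24.3% lower. The difference of the effect between days was called for 0 of 5 (unadjusted 0, DESeq2 0), against 5.71% of all features. The tested members' median log2 change was -0.47 at day 4 and -0.11 at day 7, beside 0.038 and 0.16 over all tested features. These medians cover only features that passed the filter. L1MDb_5end minus passed through NTC libraries alone, and L1M2c_5end minus through NTC libraries at day 4 and SETDB1 libraries at day 7. The medians are therefore partly set by the filter, and their distance from the table was not tested.

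**Figure D3:**
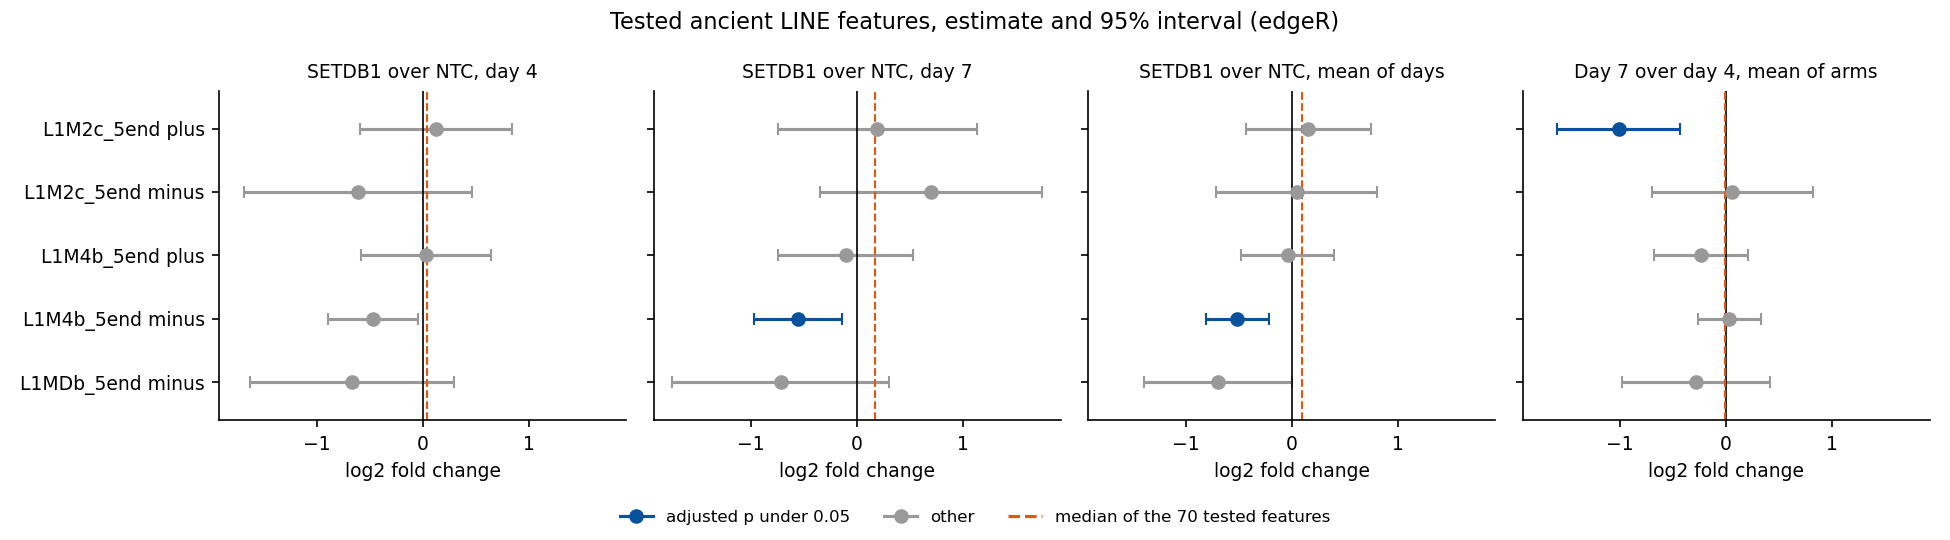
Log2 fold changes (x axis) with 95% intervals from edgeR for the 5 tested features, for SETDB1 over NTC at day 4, at day 7 and averaged, and for day 7 over day 4 averaged over arms; blue marks adjusted p under 0.05 and the dashed line is the median of the 70 tested features. L1M4b_5end minus is below 0 at both days, and L1M2c_5end plus is at -1.01 in the time comparison.

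Adding the 4 L1M models gave more counts behind each value. Both strands together summed to 451 counts with SETDB1 and 356 with NTC at day 4, or 29.7 and 38.8 per 10000 table counts, a ratio of 0.766 (exact 95% interval 0.665 to 0.882). At day 7 they summed to 428 with SETDB1 and 354 with NTC, or 28.6 and 33.9 per 10000 table counts, a ratio of 0.843 (0.730 to 0.973). In single libraries these rates overlapped between the arms at both days. They ran from 22.9 to 36.6 with SETDB1 and 35.8 to 41.7 with NTC at day 4. At day 7 they ran from 21.8 to 32.6 with SETDB1 and 26.7 to 40.8 with NTC. By strand, plus counts summed to 184 with SETDB1 and 110 with NTC at day 4 and to 135 and 93 at day 7, with ratios per table count of 1.01 at each day (0.794 to 1.29 and 0.771 to 1.33). Minus counts summed to 267 with SETDB1 and 246 with NTC at day 4 and to 293 and 261 at day 7, with ratios of 0.656 (0.549 to 0.783) and 0.783 (0.660 to 0.928). The difference between the strands of these sums was not tested. L1M4b_5end supplied most of the minus counts, 217 of 267 and 229 of 293 in SETDB1 libraries and 196 of 246 and 221 of 261 in NTC libraries. Over both strands at day 7 it supplied 301 of 428 counts with SETDB1 and 272 of 354 with NTC. The day 7 ratios of single models were 0.771 for L1M4b_5end, 0.669 for L1MDb_5end, 1.00 for L1M3e_5end and 1.44 for L1M2c_5end. The summed ratio therefore does not describe each model. In raw counts the sum over both strands was 1.27 times as high with SETDB1 as with NTC at day 4 and 1.21 times at day 7, less than the 1.65 and 1.43 of the table totals.

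The strand bias differed widely among the models. Over the 12 libraries the minus strand held 22 of 22 counts of CR1_Mam (exact 95% interval 84.6% to 100%), 91.7% of those of L1MDb_5end (84.8% to 96.1%) and 76.7% of those of L1M4b_5end (74.1% to 79.2%). It held 35.7% of the counts of L1M2c_5end (29.8% to 42.0%) and 14.95% of those of L1M3e_5end (8.80% to 23.1%). Among the 43 models with at least 20 counts, whose median was 59.7%, these shares ranked 1, 6, 12, 34 and 41 from the highest. The whole table had 71.5 ± 2.91% of its counts on the minus strand (SD, n = 12 libraries). With SETDB1 at day 7 the share of L1M2c_5end was 35 of 70 counts, with 2 of the 3 libraries above 50.0%. NTC day 7 replicate 1 was at 50.0%. The difference of this share between arms did not pass edgeR's test (adjusted p = 0.504 at day 4 and 0.677 at day 7). L1M3e_5end stayed at or below 41.7% in every library.

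For L1M4b_5end the minus share in the single libraries was 76.6%, 74.3% and 64.4% with SETDB1 and 74.3%, 75.3% and 88.2% with NTC at day 4. At day 7 it was 70.5%, 73.0% and 81.4% with SETDB1 and 82.0%, 79.6% and 82.8% with NTC. The arms overlapped at both days, and the summed shares were 71.9% with SETDB1 and 78.4% with NTC at day 4, and 76.1% with SETDB1 and 81.3% with NTC at day 7. The change in the odds of the minus strand was -0.52 ± 0.34 at day 4 and -0.46 ± 0.35 at day 7 (log2, SE), and neither passed edgeR's test (adjusted p = 0.304 and 0.364). So the fall on the minus strand of L1M4b_5end was not shown to differ from the change on its plus strand. The share was called for 0 of 4 tested models at day 4, where 16.7% of all models were called, and for 0 of 4 at day 7, where 28.6% were (edgeR, unadjusted p under 0.05 in 0 at each day; limma 0 at each day).

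**Figure D4:**
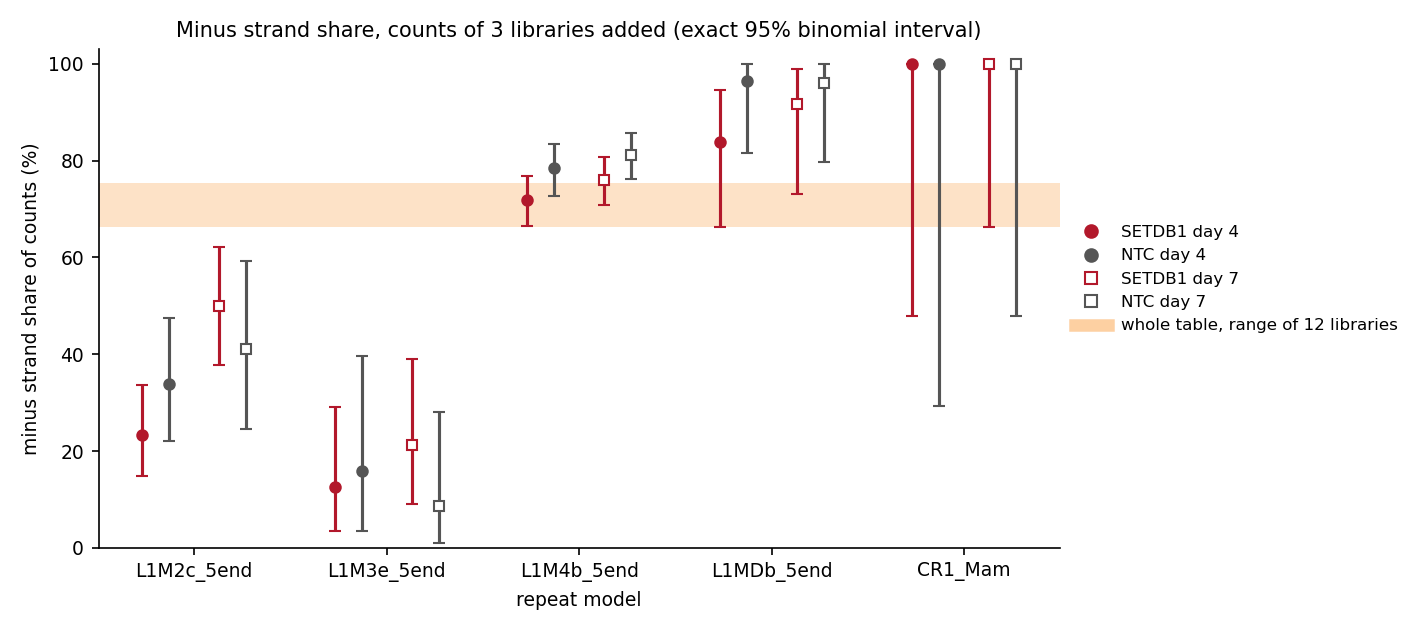
Minus strand share of the counts (y axis, percent) of each ancient LINE model by group, with the counts of 3 libraries added and exact 95% binomial intervals; the band is the range of the whole table over 12 libraries. L1MDb_5end and CR1_Mam lie mostly above the band, L1M2c_5end and L1M3e_5end below it.

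Between the days, L1M2c_5end plus had lower means at day 7 than at day 4 in both arms, without passing the test in either arm alone. It had 123, 301 and 224 CPM at day 7 and 490, 285 and 547 CPM at day 4 in the SETDB1 libraries. In the NTC libraries it had 181, 294 and 106 CPM at day 7 and 376, 327 and 539 CPM at day 4. Day 7 lay below day 4 without overlap in NTC cells, and in SETDB1 cells only day 7 replicate 2 reached above the lowest day 4 library. The means were 216 ± 89.2 CPM at day 7 and 441 ± 138 CPM at day 4 with SETDB1, and 194 ± 94.7 CPM at day 7 and 414 ± 111 CPM at day 4 with NTC (SD, n = 3 each). The log2 change, day 7 over day 4, was -0.98 ± 0.36 in SETDB1 cells (edgeR adjusted p = 0.063, unadjusted p = 0.00926) and -1.04 ± 0.45 in NTC cells (adjusted p = 0.212, unadjusted p = 0.0254).

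In SETDB1 cells 0 of 5 members were called, against 12.9% of all features (unadjusted 1 of 5, DESeq2 1 of 5). The count in SETDB1 cells came to 1 with no filter on low counts and when SETDB1 day 7 replicate 2, SETDB1 day 4 replicate 2 or NTC day 4 replicate 2 was left out. In NTC cells 0 of 5 were called, against 5.71% (unadjusted 1 of 5, DESeq2 0 of 5). Averaged over the arms, a contrast added after these values were seen and so no independent support for them, L1M2c_5end plus fell by 1.01 ± 0.29 on the log2 scale (95% interval -1.59 to -0.43, edgeR adjusted p = 0.0116). It was the 1 of 5 members called, where 11.4% of all features were called in either direction and 1.43%, this feature alone, were lower. The call was lost without NTC day 4 replicate 3 (-0.90, adjusted p = 0.0656) and with unscaled counts (-0.93, adjusted p = 0.0539). Day 4 and day 7 counts stand in separate tables, and the day cannot be told apart from whatever else differed between them.

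The minus strand of L1M2c_5end had 148, 251 and 261 CPM at day 7 and 123, 143 and 146 CPM at day 4 in SETDB1 cells, so that day 7 lay above day 4 without overlap, by 0.71 ± 0.47 on the log2 scale (SE; edgeR adjusted p = 0.273). That is 1 of 5 members without overlap between days in SETDB1 cells, against 34.3% of all tested features, and 1 of 5 in NTC cells, the plus strand of L1M2c_5end, against 18.6%. The minus share of L1M2c_5end was 50.0% at day 7 and 23.3% at day 4 in SETDB1 cells, with counts added, and 41.2% at day 7 and 33.9% at day 4 in NTC cells. The change of this share between days was not tested. L1M4b_5end minus, called between the arms, changed by 0.031 ± 0.15 between days averaged over arms (95% interval -0.27 to 0.33).

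The other L1 5′ end models, which come from younger families, had calls in the higher direction only. Of their 18 features, all tested, 4 were higher and 0 lower at day 4, 5 higher and 0 lower at day 7 and 8 higher and 0 lower with days averaged, with median log2 changes of 0.15, 0.36 and 0.28. Over all 70 tested features, 11 were higher and 6 lower at day 4, 21 higher and 18 lower at day 7, and 22 higher and 17 lower with days averaged. L1PBa_5end plus rose by 0.89 at day 4 and L1PBb_5end plus by 1.27 at day 7. The L1 3′ end models, 10 features, had 0 calls at day 4, and 1 higher and 6 lower at day 7, with a median of -0.44. L1PA12_3end minus fell by 0.80 on the log2 scale at day 7, and L1MA8_3end minus rose by 0.46. L1MA8_3end is an L1M model too, as is L1MA5_3end, whose minus strand fell by 0.47 at day 7 (edgeR adjusted p = 0.00598). Of the ORF2 model's strands, plus rose by 0.39 at day 4 and 0.93 at day 7. Beside these, the tested ancient LINE features had 0 higher calls and 1 lower call at day 7; the difference between the lists was not tested, and with unscaled counts 35 features were higher and 0 lower at day 4, and 37 higher and 1 lower at day 7, over the whole table.

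**Figure D5:**
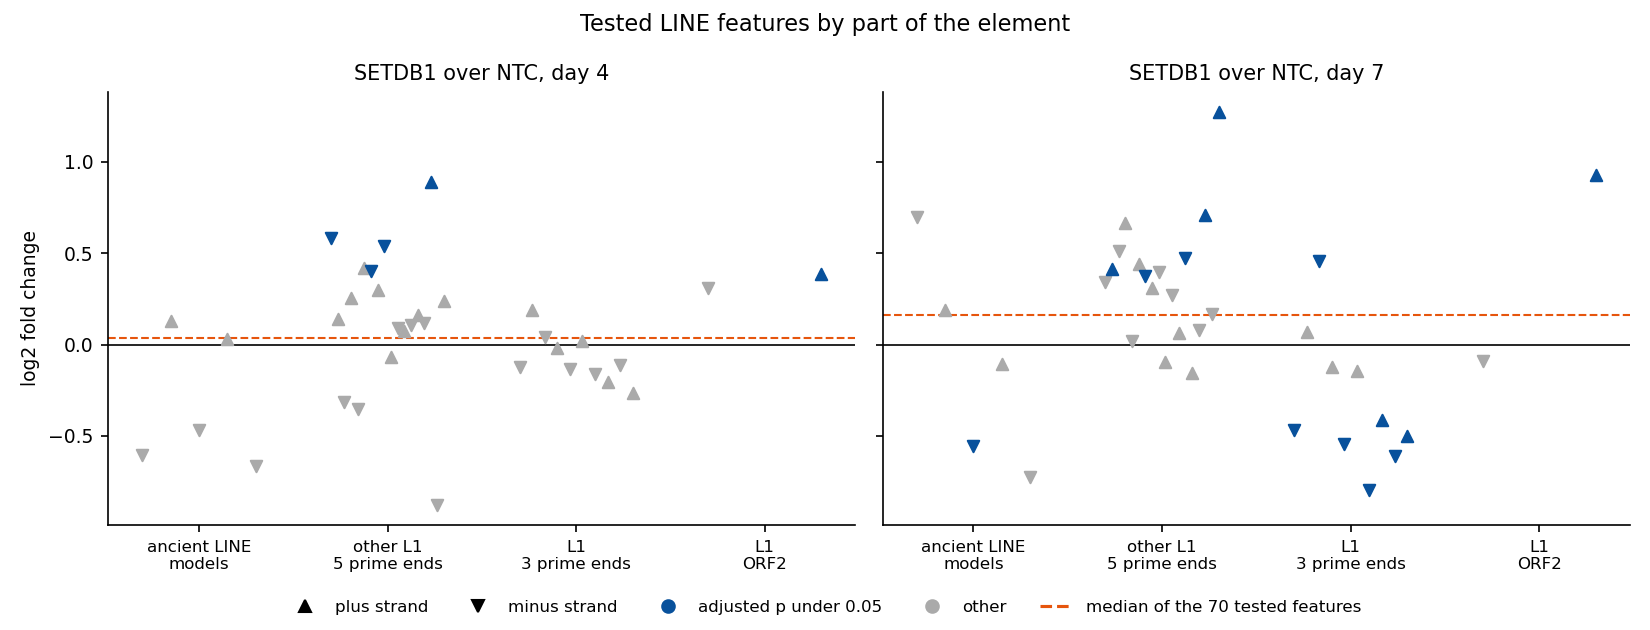
Log2 fold changes, SETDB1 over NTC (y axis), of the tested LINE features at day 4 and day 7, by the part of the element the model covers; triangles point up for the plus and down for the minus strand, blue marks adjusted p under 0.05 and the dashed line is the median of the 70 tested features. The lower calls at day 7 are L1M4b_5end minus and 6 L1 3′ end features, and the 5 called features of the other 5′ ends are all higher.

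Of the 65 tested features outside the set, the nearest to each member was found by the root mean square difference of mean-centred log2 CPM over the 12 libraries. L1M4b_5end minus was nearest to LTR23-int minus, the internal part of an endogenous retrovirus, at 0.21. LTR23-int minus had log2 changes of -0.51 ± 0.20 at day 4 (edgeR adjusted p = 0.0616) and -0.83 ± 0.21 at day 7 (adjusted p = 0.00119). As it was picked for its likeness over these same libraries, both arms included, its changes are no independent support for those of L1M4b_5end. L1M4b_5end plus was nearest to MSTC plus, from an old LTR family, at 0.27. L1M2c_5end plus was nearest to L1PA15-16_5end plus at 0.42, L1M2c_5end minus to L1MA8_3end minus at 0.37, and L1MDb_5end minus to L1PA12_3end plus at 0.41. The members' own root mean square spread was 0.35 to 0.59, so these are loose likenesses for the sparser features.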

How the data were processed

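Stranded total RNA libraries were made from 100 ng of RNA, per the labels' protocols. The authors deposited unnormalized counts of reads for each repeat model and strand, in a table for each day. CASAVA 1.8, BWA and HTSeq are named, without roles, per the submitters' processing notes. The sources used here do not give the genome build, the repeat models, the handling of reads with several positions or the choice of the 45 models. Each of the 24 columns was assigned by the sample description above it, and groups come from the titles.

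Each strand of a model was a feature. edgeR 4.0.16 in R 4.3.3 filtered features with filterByExpr (minimum count 10, minimum total 15), which left 70 of 90 features and 42 of 45 models with strands added; what was dropped came to 0.121% of all counts. For features by strand, library sizes were table totals with TMM factors (0.914 to 1.07). Their quasi-likelihood fit held 12 libraries in 4 groups (residual degrees of freedom 8, biological variation 11.4% as a coefficient). Models with strands added had a separate fit of the same kind, with its own TMM factors and dispersion. The fit of the minus share used table totals without TMM. Adjustment was by Benjamini-Hochberg over all features, with 0.05 as the threshold, and standard errors were derived from F statistics. For the minus share, edgeR took the strands of each library as separate columns with a library block; limma 3.58.1 on the log2 ratio was the alternative. Sums have exact Poisson, Clopper-Pearson or conditional binomial 95% intervals. Alternatives were DESeq2 1.42.0, table totals, unscaled counts, no filter, each day alone, L1P1_orf2 left out, a replicate block and each library left out. The fits were run on simulated data with larger changes than those called between the arms here. For the share, the simulated counts were also higher than those of the members. Changes as small as those of the members were not tested in this way. No pair of libraries of a group was close enough to be a duplicate, with a chi-square per degree of freedom of 1.75 to 15.4. All 10 features are named, and beside each tested one stands its nearest feature over the 12 libraries. Beside the other LINE lists stands the largest called change in each direction, with L1MA5_3end minus added as an L1M model. The members, lists and tests were chosen with earlier results of these data known. No sequences of the models were used here.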

Additional observations from a re-analysis of the deposited data

How the results depend on the processing

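The count of called members moved as follows. At day 7 it was 1, as in 13 of the 19 alternatives, and 0 with table totals in place of TMM or with unscaled counts; with strands added it was also 0 with table totals. With days averaged it was 1, and 2 with unscaled counts or no filter. For day 7 over day 4 in SETDB1 cells it was 0, and 1 with DESeq2, no filter or a replicate block; averaged over arms it was 1, and 0 unscaled. Leaving out 1 library at a time gave 0 to 1 at day 4, at day 7, at day 4 with strands added, and between days in SETDB1 cells or averaged over arms. It gave 1 to 2 with days averaged and at day 7 with strands added, and 0 for the other comparisons.

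Signs turned as follows, as log2 changes of SETDB1 over NTC. Unscaled counts gave L1M4b_5end minus 0.15 at day 4, 0.051 at day 7 and 0.10 averaged, and gave L1M4b_5end plus 0.49 at day 7 and 0.57 averaged. L1M2c_5end minus was then 0 at day 4. With strands added, unscaled counts gave L1M4b_5end 0.27 and 0.15 at day 4 and day 7, L1M3e_5end 0.51 at day 7, and L1M2c_5end 0.54 and L1MDb_5end 0.14 at day 4. The other reversals were of values within 1 SE of 0: L1M4b_5end plus at day 4 with table totals (-0.069) or no filter (-0.0041), L1M2c_5end minus averaged with no filter (-0.060), and, with each day fitted alone, L1M2c_5end plus at day 7 (-0.052) and L1M2c_5end with strands added at day 4 (0.020).

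Replicate numbers were not seen to pair the samples: deviations of 18 same-numbered pairs correlated at -0.31 to 0.30, 5 of them over 0.1. Their median was -0.0077, against 0.0085 for pairs with different numbers. The labels do not say whether same-numbered replicates belong together, and correlations this noisy cannot settle it. A replicate block gave L1M3e_5end with strands added -0.017 at day 4, and L1M4b_5end minus -0.55 at day 7 (edgeR adjusted p = 0.0138).

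With 1 library left out, these values crossed 0. L1M2c_5end plus ran from -0.062 to 0.35 at day 4, -0.14 to 0.59 at day 7 and -0.0044 to 0.36 averaged. L1M4b_5end plus ran from -0.28 to 0.32 at day 4, -0.27 to 0.068 at day 7 and -0.19 to 0.11 averaged. L1MDb_5end minus ran from -1.01 to 0.089 at day 7, L1M2c_5end minus from -0.22 to 0.29 averaged, and L1M3e_5end with strands added from -0.059 to 0.23 at day 4. Between days, averaged over arms, L1M2c_5end minus ran from -0.23 to 0.30 and L1M4b_5end minus from -0.10 to 0.15. For the log2 odds of the minus strand, L1M3e_5end ran from -0.82 to 0.45 and L1MDb_5end from -4.10 to 1.21 at day 4, and L1MDb_5end from -3.41 to 0.26 at day 7. Where no value shows it, the cause was not tested. Depth limits CR1_Mam, L1M3e_5end minus and L1MDb_5end plus, with at most 5 counts per library.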
